A study of Mus musculus with 6 samples.

Results

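The regions described here are the CTCF sites of a 15 Mb window near the distal end of mouse chromosome 2, from 160 to 175 Mb (build mm10), which holds Cebpb, the gene of the liver transcription factor C/EBPβ. The window was chosen by where the peaks of these 4 lists lie, so the number, crowding and recurrence of its peaks are given as description and were not tested. All peaks with a midpoint in the window were taken, 967 in all of 32988 peaks on chromosomes 1 to 19, X and Y. Peaks of different lists that overlapped by at least 1 bp were merged into sites. This gave 844 sites in the window of 31285 in the genome. The members are the 83 window sites found in 2 or more lists, called recurrent here.

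The peaks come from chromatin immunoprecipitation with an antibody to CTCF, followed by sequencing, in Hepa-1c1c7, an established mouse hepatoma line. The study had 2 untreated libraries (0 µM) and 2 libraries from cells given 25 µM potassium chromate, a hexavalent chromium salt, for 90 min before fixation, numbered 1 and 2 in each group. The 4 lists differ in length, with 11707 peaks for untreated 1, 4495 for untreated 2, 14881 for chromium 1 and 1905 for chromium 2. Chromium 2 is much the shortest, so several results that rest on it are also given without it. The label of neither input sample names chromium, and the inputs were not analysed here. All libraries are of 1 cell line. The labels do not say whether both libraries of a group were grown apart, so their spread, and any p-value resting on it, may be technical only. The read totals, which set the depth, remain unknown here. A missing peak therefore says only that none was called.

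The zinc fingers of the CTCF protein recognise a long, GC-rich DNA motif. CTCF stops the loop extrusion of cohesin, and pairs of CTCF sites in facing orientation are the usual anchors of chromatin loops and the borders of domains. Most of its sites lie away from promoters, but some lie just upstream of a transcription start. Cebpb is a short gene without introns, and its product, C/EBPβ, takes part in the acute phase response and in gluconeogenesis of hepatocytes.

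Recurrent sites overlapped the promoters of Cebpb, of Snai1 (a repressor of epithelial genes), of Fitm2 (an endoplasmic reticulum protein of lipid droplet formation) and of Stk4 (MST1, a kinase of the Hippo pathway). The 250 bases before the RefSeq transcription start of these 4 genes are shown (GRCm38.p6, the same primary coordinates as mm10). Recurrent sites also overlapped promoters of Zfp64, 2310001K24Rik and the non-coding Gm33185, which are not shown. The sequences shown are written 5′ to 3′ on the strand of the gene. Capitals mark matches to CAGNNGGC or CANNAGNGG, 2 short forms of the core of the CTCF motif, searched on both strands. The 4 shown are the ones with such a match inside the recurrent site, so they do not stand for all promoters that a recurrent site overlaps.
Cebpb, chr2:167688665-167688914, + strand: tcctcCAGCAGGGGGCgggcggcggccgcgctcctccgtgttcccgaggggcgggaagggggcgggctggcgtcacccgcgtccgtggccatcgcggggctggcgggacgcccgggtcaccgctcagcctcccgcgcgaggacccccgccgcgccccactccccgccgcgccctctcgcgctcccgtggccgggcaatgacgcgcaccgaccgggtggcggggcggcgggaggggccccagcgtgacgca
Snai1, chr2:167537945-167538194, + strand: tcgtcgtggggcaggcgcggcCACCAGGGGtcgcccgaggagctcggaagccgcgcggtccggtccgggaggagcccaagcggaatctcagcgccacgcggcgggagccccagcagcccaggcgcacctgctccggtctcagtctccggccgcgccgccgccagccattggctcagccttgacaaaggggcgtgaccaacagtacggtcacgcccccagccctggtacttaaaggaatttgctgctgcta
Fitm2, chr2:163472630-163472879, - strand: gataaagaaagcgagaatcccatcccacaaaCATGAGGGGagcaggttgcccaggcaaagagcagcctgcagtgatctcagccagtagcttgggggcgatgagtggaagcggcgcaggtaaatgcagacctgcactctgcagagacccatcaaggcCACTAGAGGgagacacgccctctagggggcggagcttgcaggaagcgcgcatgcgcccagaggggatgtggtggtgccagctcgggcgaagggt
Stk4, chr2:164073888-164074137, + strand: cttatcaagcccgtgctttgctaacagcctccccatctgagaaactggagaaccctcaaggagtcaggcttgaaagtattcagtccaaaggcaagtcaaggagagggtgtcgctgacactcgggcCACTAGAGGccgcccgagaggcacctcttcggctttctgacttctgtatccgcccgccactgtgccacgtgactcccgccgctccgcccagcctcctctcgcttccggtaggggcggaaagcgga

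In the Cebpb promoter the marked run starts 245 bases before the transcription start, and the middle of its CANNAGNGG match lies 5 bp from the centre of the recurrent site. The run also holds a CAGNNGGC match, which shares 6 of its bases. The Snai1 match starts 229 bases before the start and lies 64 bp from the site's centre. In Fitm2 the nearer of its matches lies 16 bp from the centre of the site, and in Stk4 the match lies 159 bp from it. Each of these matches is inside its site. The other promoter sequences that a recurrent site overlaps, not printed, had none of their CAGNNGGC or CANNAGNGG matches inside the site. The Zfp64 match to CANNAGNGG lay 254 bp from the centre of its site, that of the non-coding Gm33185 334 bp, and the CAGNNGGC match of 2310001K24Rik 228 bp. CANNAGNGG occurs in 18.9% and CAGNNGGC in 25.9% of all 32851 RefSeq promoter sequences of 300 bases, which run from 250 before to 50 after a start. Of the 9 window promoter sequences that a recurrent site overlaps, 7 hold CANNAGNGG and 2 hold CAGNNGGC. The form CANNAGNGG was chosen after these sequences were seen, 3 of the 9 are starts of 1 gene, the long non-coding Gm33185, and some share bases, so these counts are a description. The shorter CCCTC, also searched on both strands, is in 8 of the 9 and in 66.0% of all promoter sequences.

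The window's peaks were crowded into its middle. Cebpb lies in the 1 Mb bin from 167 Mb, where untreated 1 had 55 peaks, chromium 1 had 70, untreated 2 had 43 and chromium 2 had 14. The next bin, from 168 Mb, had 48, 75, 42 and 8 in the same order. The bin below this pair held 22, 19, 4 and 2 peaks, and the bin above it 10, 18, 8 and 4. In every list both central bins thus stood above both bins beside them. These 2 Mb, singled out after the counts were seen, held 31.9%, 35.7%, 47.0% and 38.6% of the window's peaks in the same order. They hold or touch 23 of the 166 protein-coding genes of the window. The bin from 164 Mb, the richest with 51 coding genes starting in it, had 32, 30, 15 and 7 peaks. The sparsest bin, from 171 Mb, had 1, 3, 0 and 0, and the last bin, which holds the imprinted gene Gnas, had 5, 5, 0 and 1.

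**Figure D1:**
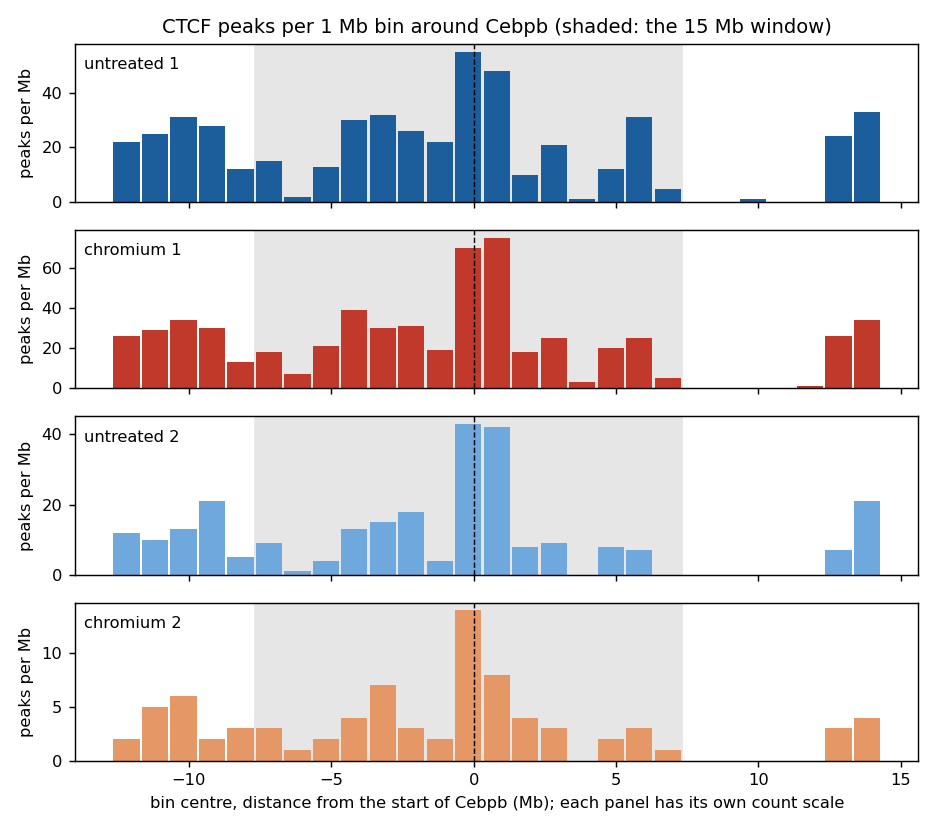
CTCF peaks per 1 Mb bin in each list, plotted by the distance of the bin's centre from the start of Cebpb in Mb; the shaded band is the 15 Mb window, the dashed line is the start of Cebpb, and each panel has its own vertical scale. In all 4 lists the highest bars of the plotted range are the bin that holds Cebpb and the bin after it.

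Of the 844 window sites, 83 were recurrent (9.83%), 34 were in 3 or 4 lists (4.03%) and 5 were in all 4 (0.592%). Over the genome the shares were 4.55%, 0.793% and 0.0479%, and 5 of the genome's 15 sites in all 4 lists lay here. The central 2 Mb held 44 of the 83 recurrent sites, 24 of the 34 in 3 or 4 lists and all 5 of those in every list. No other 2 Mb stretch of the genome, tiled in steps of 1 Mb, had as many recurrent sites. The next, on chromosome 15 from 101 Mb, had 24. Since the window was chosen for its peaks, these shares only describe it. The count fell from 83 to 42 without untreated 1, to 46 without chromium 1 and to 67 without untreated 2. Without chromium 2 it was 79, with 32 of these sites in all 3 remaining lists. With only the peaks at or above the median score of their list it was 53, and with lists of equal length 44. The first recurrent site inside the window lay 579 kb above its lower border and the nearest one outside 1134 kb below it. At the upper border the distances were 1324 kb inside and 5679 kb outside.

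Cebpb had 6 recurrent sites, the farthest of them 34.4 kb from its start. Scores are the authors' own values per peak, and a percentile gives a peak's place among the scores of its own list. The promoter site spanned 167688493 to 167688846, its centre 246 bp before the transcription start. It scored 11.99 in untreated 1 (percentile 99.0), 15.4 in chromium 1 (99.8) and 4.07 in untreated 2 (38.0). Chromium 2 had no peak there, and its nearest lay 8.54 kb away. The site with the highest scores of the group in untreated 1 and chromium 1 lay 3.64 kb upstream of the gene, at 167685043 to 167685506. It scored 23.0, 21.5 and 11.4 in untreated 1, chromium 1 and untreated 2, which placed it 17th, 9th and 17th in those lists, and it too was absent from chromium 2. A pair of sites lay about 8 kb upstream, with only 109 bp between their edges. The farther of them, 167680002 to 167680482, was called in all 4 lists and had the group's highest score in untreated 2 (14.4) and chromium 2 (6.198), with percentiles (lists in the order above, chromium 2 last) of 98.9, 99.2, 99.7 and 96.0. The nearer one was called in every list but chromium 2, at 97.7, 95.9 and 98.5. Downstream, a site 24.6 kb beyond the start was again in all 4 lists, at 99.8, 98.6, 94.8 and 87.3. The last, the farthest downstream, was weaker and only in untreated 1 and chromium 1, at 73.9 and 43.4. Both flanks of the gene thus had a site in every list, while the promoter site was missing from chromium 2.

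Snai1, 151 kb below Cebpb, had 3 recurrent sites. The promoter site, 167537818 to 167538251, was in all 4 lists, and its centre lay 161 bp before the start. It scored 17.6 and 4.90 in untreated 1 and 2, and 6.99 and 4.31 in chromium 1 and 2. Within its own list it stood 36th in untreated 1 and 1001st in chromium 1, so its place varied widely between the lists. A site 5.84 kb upstream was stronger, 16th in untreated 1, 10th in chromium 1 and 242nd in untreated 2, with no chromium 2 peak within 4.80 kb. The third, 27.3 kb from the gene, was in chromium 1 and untreated 2.

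Ptgis, which encodes prostacyclin synthase, held 2 recurrent sites inside the gene, 2.73 kb apart and over 16 kb from its ends. The one at 167222141 to 167222531 was in all 4 lists, with a percentile of 94.9 in untreated 1, one of 99.8 in chromium 1, one of 93.9 in untreated 2 and one of 70.9 in chromium 2. The other was at 99.6, 98.4 and 98.1 in the first 3 of these, and chromium 2 had no peak at it. Atp9a, a P4-type ATPase of endosomes, held the last site in all 4 lists, deep inside the gene at 168691748 to 168692215, with percentiles of 99.6, 93.6, 99.1 and 87.1 in the order used for Ptgis. A site 5.45 kb beyond the far end of Atp9a (99.4 and 99.3) and one with its centre 550 bp beyond the other end (24.4 and 89.5) were in untreated 1 and chromium 1 alone. The sites in all 4 lists thus lay at 1 promoter, inside 2 genes and at 2 places in the gap around Cebpb, and together they spanned 1.47 Mb.

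**Figure D2:**
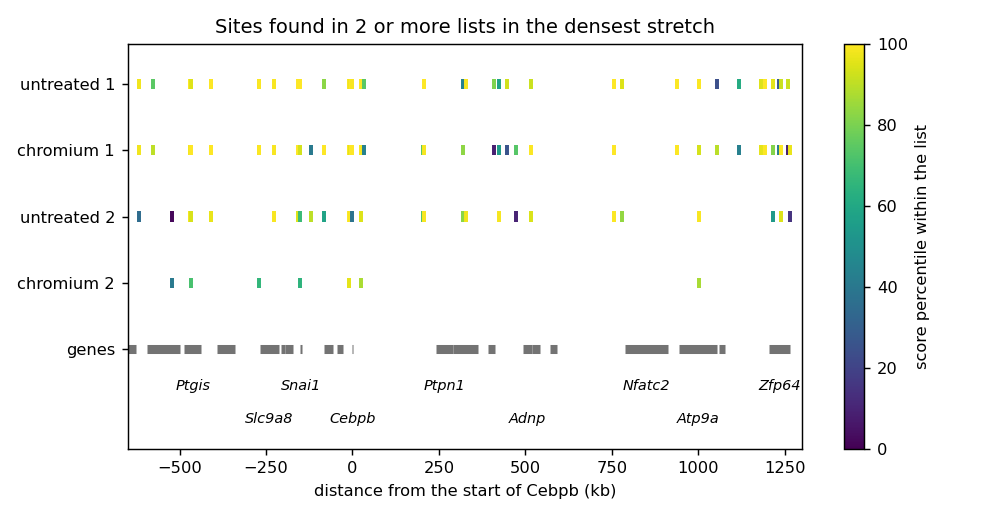
Recurrent sites of the densest stretch in each list by distance from the start of Cebpb in kb; each tick is a site called in that list, its colour the score percentile within the list, and grey bars are protein-coding genes. The chromium 2 row has 7 sites, and the 5 that are in every list stand at Ptgis, Snai1, Cebpb (upstream and downstream) and Atp9a.

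Other strong sites in 3 or 4 lists filled the central 2 Mb. The top-ranked window peak of untreated 1, 13th in its list with a score of 27.4, lay 17.6 kb from B4galt5, a galactosyltransferase of glycolipid synthesis, and its site was also 16th in chromium 1 and 151st in untreated 2. A site 30.8 kb from Nfatc2, a transcription factor under calcineurin control, ranked 18th, 12th and 25th in the same lists. Zfp64, a zinc finger gene, had 8 recurrent sites in or near it, the largest number for 1 gene, of which 3 were in all lists but chromium 2. Its best stood at percentiles of 99.6, 99.4 and 99.1 in untreated 1, chromium 1 and untreated 2. Sites in 3 lists also lay at Slc9a8 (a sodium/proton exchanger, 2 sites), a second B4galt5 site, Ube2v1 (a ubiquitin-conjugating enzyme variant), Ptpn1 (the phosphatase PTP1B, which acts on the insulin receptor), Ripor3, Pard6b (a cell polarity protein), Adnp (a homeobox protein of chromatin) and Znfx1. All of these but 1 were called in both untreated lists and chromium 1. The exception, 2.17 kb from Slc9a8, was in untreated 1, both chromium lists and not untreated 2.

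In the other 13 Mb, 10 sites were in 3 lists and none in 4. Their nearest coding genes were Top1 (DNA topoisomerase I, 67.1 kb away), Fitm2, Hnf4a, Cd40, Zfp663, Zmynd8 and Sulf2. Others were Pfdn4 (a prefoldin subunit) and Bmp7 (a TGF-β family ligand, 36.8 kb away). The remaining site lay inside the predicted gene Gm40011, close to Ctcfl. Hnf4a encodes a nuclear receptor that is a main regulator of hepatocyte genes. It held 2 recurrent sites inside the gene, 2.87 kb apart, of which the second was in 3 lists at percentiles of 91.4, 92.5 and 17.2 in untreated 1, chromium 1 and untreated 2. The Fitm2 promoter site shown above stood at 92.7, 99.6 and 68.1 in the same lists. Ctcfl, the germline paralogue of CTCF, had recurrent sites on both sides of its nearer end. The one outside, 3.95 kb from that end, was at 91.4, 87.9 and 90.0 in untreated 1, chromium 1 and untreated 2. The one inside the gene was in both untreated lists, at 55.8 and 80.4, and in neither chromium list.

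Neighbouring recurrent sites were a median of 43.8 kb apart in the window (82 gaps, from 0.375 kb to 2344 kb), 24.8 kb in the central 2 Mb and 138 kb on the rest of chromosome 2. The window's median was 69.2 kb without untreated 1 and 94.99 kb without chromium 1. Of the 82 gaps, 14 were under 5 kb (17.1%), against 2 of 119 on the rest of the chromosome (1.68%). Among the 119 is the stretch across the window itself, which is no gap between neighbouring sites. Since the window was chosen by its peaks, these spacings only describe it. The window's 5 gaps under 1 kb lay between sites with Cebpb, Zfp64, Pard6b, Pfdn4 and Bmp7 as the nearest coding gene. Both sites of each such pair were in untreated 1 and chromium 1. The longest gap in the central stretch, 240 kb, ran from Adnp towards Nfatc2. The longest of the window separated the first site, 67.1 kb from Top1, from the next, 9.23 kb from Srsf6.

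Recurrent sites carried many of the highest scores of the window. The median percentile of their peaks was 91.9 for untreated 1 with 75 peaks, 93.6 for chromium 1 with 72, 89.9 for untreated 2 with 48 and 64.5 for chromium 2 with 11. Window peaks found in a single list had medians of 55.8, 54.9, 51.7 and 45.3. Among the 100 best peaks of each list, 14, 13, 14 and 6 fell in the window in the same order, and 13, 11, 12 and 4 of these in its central 2 Mb. Of all peaks of each list the window held 2.76%, 2.73%, 4.03% and 2.99%. The central 2 Mb held 0.880%, 0.974%, 1.89% and 1.15%. These shares only describe a window chosen by its peaks. The members were not uniformly strong: 14, 18, 11 and 5 of their peaks were below the median of their list. Among the top 5% of their list were 37.3%, 48.6% and 27.1% of the member peaks of untreated 1, chromium 1 and untreated 2. For the other window peaks the shares were 2.02%, 4.19% and 2.26%. In chromium 2 it was 1 of 11 member peaks, against 5 of 46 of the others. With so few member peaks, this is a weak basis for setting that list apart.

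**Figure D3:**
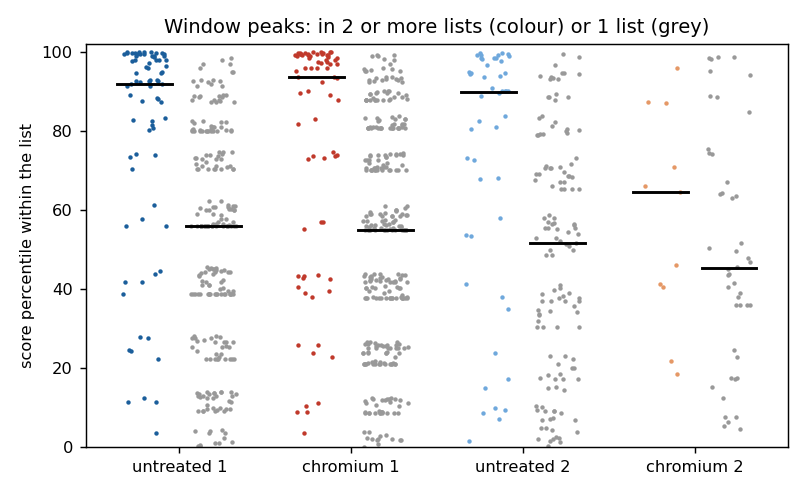
Score percentile within the list for every window peak, in colour for peaks of recurrent sites and in grey for peaks found in 1 list; black bars are medians. The coloured medians are 91.9, 93.6, 89.9 and 64.5, and the grey ones lie between 45.3 and 55.8.

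Gene positions were not used to choose the window, so the place of its peaks relative to genes could be compared with the rest of the chromosome. Peaks within 1 kb of the start or end of a coding gene (gene-end peaks) made up 20 of 323 window peaks of untreated 1 (6.19%, exact 95% interval 3.82 to 9.40) and 12 of 181 of untreated 2 (6.63%, 3.47 to 11.3). They made up 16 of 406 of chromium 1 (3.94%, 2.27 to 6.32) and 3 of 57 of chromium 2 (5.26%, 1.099 to 14.6). On the rest of chromosome 2 the shares were 8.89% and 10.3% in untreated 1 and 2 and 9.79% and 8.00% in chromium 1 and 2. The window was thus lower in 4 of 4 libraries, by a mean of 3.73 percentage points (the mean difference was -3.73 ± 1.48, SD, n = 4; two-sided exact sign-flip permutation test, p = 0.125, the smallest that 4 libraries allow). For peaks within 1 kb of a transcription start the mean difference was 0.209 ± 3.17 points (SD, n = 4; exact sign-flip permutation p = 1), lower in 2 libraries and higher in 2. These were the starts of all 32851 RefSeq promoter sequences, non-coding genes and alternative starts included. They are therefore no subset of the coding gene ends. Set against the other autosomes and X the gene-end difference was only -0.483 points (exact permutation p = 0.5), and only 3 of the 4 libraries were lower. Without chromium 2 the mean gene-end difference from the rest of chromosome 2 was -4.065 points. Intervals cover counting error over peaks only. All 4 libraries were read at the same window and the same genes. Their agreement therefore does not tell whether the window differs from other regions.

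**Figure D4:**
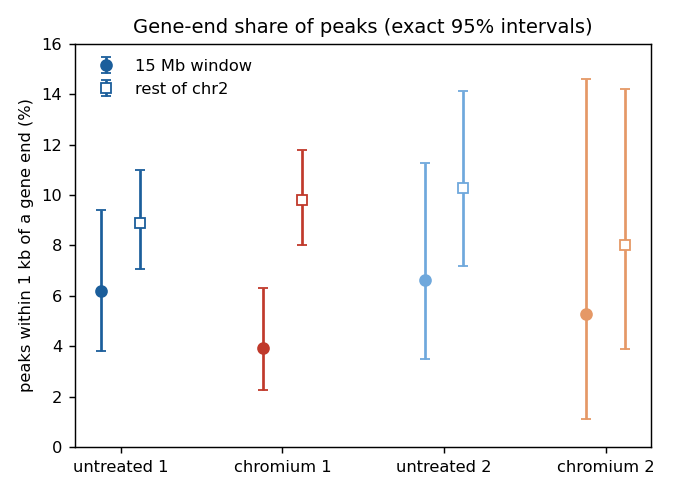
Share of peaks within 1 kb of a gene end, in percent, for the window (filled circles) and the rest of chromosome 2 (open squares) in each library; bars are exact 95% intervals. Each filled circle lies below its open square, and the intervals overlap in untreated 1, untreated 2 and chromium 2 but not in chromium 1.

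Among the recurrent sites, 8 of 83 had their centre within 1 kb of a gene end (9.64%, exact 95% interval 4.25 to 18.1), against 27 of 120 on the rest of chromosome 2 (22.5%, 15.4 to 31.0) and 17.2% of all 1425 recurrent sites of the genome. A further 31 lay inside genes and 44 between genes. Sites of a single list had a gene-end share of 4.07% in the window and 7.78% on the rest of chromosome 2. Within 1 kb of the transcription starts used above lay 12 of the 83 recurrent sites (14.5%). That share was 20.8% for recurrent sites on the rest of chromosome 2 and 14.7% for those of the genome. The 8 recurrent gene-end sites were at Snai1, Cebpb, Fitm2, Stk4, Zswim3, Slc35c2 (a Golgi nucleotide sugar transporter), Zfp64 and Atp9a. The Slc35c2 site lay at the 3′ end of its gene, 11.5 kb from the start, at percentiles of 41.8 in untreated 1 and 56.9 in chromium 1. The Zswim3 site, 619 bp inside the gene and also inside Acot8 (a peroxisomal thioesterase), was in untreated 2 and chromium 2, at 98.5 and 46.0. The Stk4 site was in both untreated lists alone, at 89.2 and 41.2, and the Zfp64 start site in chromium 1 and untreated 2, at 96.9 and 14.8.

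The comparison by treatment asks whether sites called without chromium were also called after it. Of all chromosome 2 peaks the window held 27.7% and 36.1% in untreated 1 and 2, and 28.9% and 31.3% in chromium 1 and 2. Untreated libraries averaged 31.9% ± 5.92 and chromium libraries 30.1% ± 1.74 (SD, n = 2 each). The difference, -1.78 points, was smaller than the untreated spread, and it is a description with no test, since it is made of the peak positions that chose the window. It was -7.17 points with only the peaks at or above the median score of their list and -3.53 points with lists of equal length. The pairs went opposite ways, with 1.18 points more under chromium in pair 1 and a change of -4.74 points in pair 2. Without untreated 2 the difference was 2.41 points, and without chromium 2 it was -3.01 points. The gene-end share of window peaks was 6.41% ± 0.310 in untreated and 4.602% ± 0.935 in chromium libraries (SD, n = 2 each). The groups did not overlap, with a difference of -1.81 points (p = 0.333 by exact two-sided permutation of 2 against 2 libraries, which allows none lower). That direction turned when only peaks at or above the median score of their list were used (0.883 points) and with lists of equal length (0.111 points). Without chromium 2 the difference was -2.47 points.

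Of the 40 window sites called in both untreated lists, 32 were also in chromium 1 (80.0%, exact 95% interval 64.4 to 91.0), 5 in chromium 2 (12.5%, 4.19 to 26.8) and 8 in neither (20.0%, 9.05 to 35.7). On the rest of chromosome 2 there were 36 such sites, of which 16 were in chromium 1 (44.4%, 27.9 to 61.9), 4 in chromium 2 (11.1%) and 19 in neither (52.8%, 35.5 to 69.6). Over the genome, window included, 235 of 435 such sites were in chromium 1 (54.0%), 17 in chromium 2 (3.91%) and 198 in neither (45.5%). In the central 2 Mb 23 of 25 were in chromium 1 (92.0%, 74.0 to 99.0), and in the other 13 Mb 9 of 15 (exact 95% interval 32.3% to 83.7%). The intervals cover counting error over sites only, not the spread between libraries. The window was picked for peaks that recur in these very lists, chromium 1 included. The gaps to the rest of the chromosome and to the genome are therefore a description. With chromium 1 left out, 35 of the 40 were in no chromium list, so the retention of these sites rested on chromium 1.

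**Figure D5:**
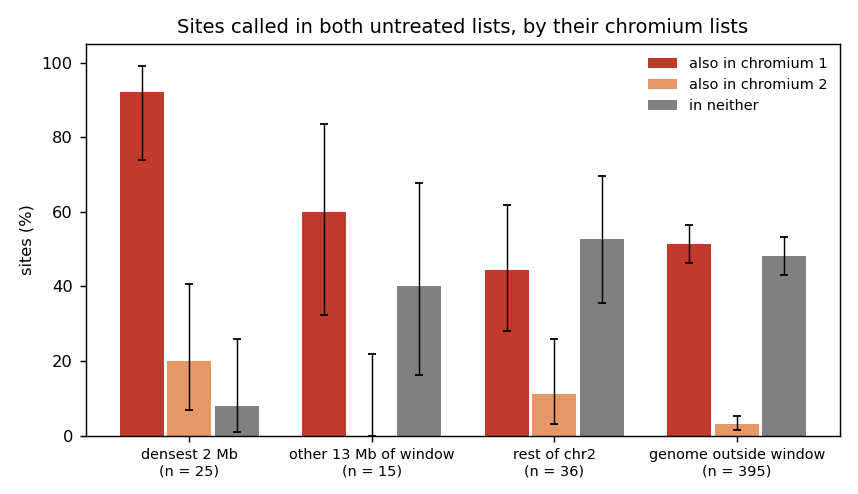
Sites called in both untreated lists, as the percent of them also called in chromium 1, in chromium 2 or in neither, for the densest 2 Mb, the other 13 Mb of the window, the rest of chromosome 2 and the genome outside the window; bars through the columns are exact 95% intervals. The share in chromium 1 is 92.0% in the densest 2 Mb and 44.4% on the rest of chromosome 2. The intervals leave out the spread between libraries.

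The 8 sites called in both untreated lists and in neither chromium list made up 0.948% of the window's sites. That share was 0.883% on the rest of chromosome 2 and 0.633% of all sites in the genome. Taken from the sites in both untreated lists only, the order was the reverse, with 20.0% in the window and 45.5% over the genome. Besides Stk4 and Ctcfl, the nearest coding genes of the 8 sites were Ccn5, Trp53rka, Ripor3, Nfatc2, Bcas1 (22.4 kb away) and Bmp7 (40.5 kb away). The strongest was inside Ripor3, at 168016898 to 168017234, with percentiles of 99.1 and 97.8 in untreated 1 and untreated 2, and chromium 1 had a separate peak 0.632 kb away. The Trp53rka site, 2.73 kb from a gene for a p53-related protein kinase, stood at 97.9 and 81.0, and the nearest chromium peaks were 10.8 kb away in chromium 1 and 5.35 kb in chromium 2. The second Nfatc2 site (94.7 and 83.9) had its nearest chromium 1 peak at 10.1 kb. The Bcas1 site was weak in both lists, at 24.3 and 7.10. The opposite pattern, both chromium lists and neither untreated list, was found at 0 of 844 sites, which allows a share of up to 0.355%, and at 0.0479% of sites in the genome. It needs a chromium 2 peak, which only 57 window sites had, so the count of 0 says little. It cannot be given without that list.

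The lists overlapped more in the window than over the genome, which only describes a window chosen by these peaks. Untreated 1 and chromium 1 shared 65 sites, 20.1% of the window sites of untreated 1 and 16.0% of those of chromium 1, against 8.71% and 6.85% over the genome. The untreated lists shared 40, 12.4% of untreated 1 and 22.1% of untreated 2, against 3.72% and 9.68% over the genome. Chromium 1 shared 38 sites with untreated 2, 9.38% and 21.0% of the 2 lists, against 2.49% and 8.235%. Chromium 2 shared 9 sites with untreated 1, 7 with chromium 1 and 7 with untreated 2, which were 15.8%, 12.3% and 12.3% of its own 57. Over the genome these shares of chromium 2 were 3.15%, 2.15% and 2.15%. The 72 recurrent sites without a chromium 2 peak were a median of 32.5 kb from the nearest one, and 5 of them had one within 1 kb.

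Within the lists of genes that were set down by function, gene-end peaks were scattered. Of the 166 protein-coding genes of the window, 40 had one in some list (24.1%) and 8 had a recurrent one. Of 15 liver and metabolism genes, 6 had a gene-end peak in any list: Cebpb and Fitm2 in all but chromium 2, Slc35c2 in both number 1 lists, Ada (adenosine deaminase) and Acot8 in untreated 1, and Ttpal in untreated 2. Pck1, the gluconeogenic enzyme PEPCK, had none, but a weak recurrent site lay 5.36 kb beyond its end, at percentiles of 22.3 in untreated 1 and 11.2 in chromium 1. Of 24 transcription factor and chromatin genes 6 had one, namely Snai1, Cebpb, Zfp64, Mybl2 and Adnp in untreated 2, and Rbpjl in untreated 1. Of these Snai1 was called in all 4 lists and Mybl2, Adnp and Rbpjl in a single list. Among 25 genes next to Cebpb there were 10, of which Snai1, Cebpb and Atp9a had a recurrent site at an end and Ptgis, Rnf114, Ube2v1, Tmem189, Adnp, Dpm1 and Ddx27 a peak of a single list. Of 8 mitosis and cell cycle genes 3 had one, Stk4 in both untreated lists, Mybl2 in untreated 2 and Rae1 (an mRNA export factor) in chromium 1. The 23 genes of the WFDC protease inhibitor cluster had 4, Slpi and Spint5 in untreated 1 and Wfdc6b and Wfdc8 in chromium 1, and no recurrent site at or in any gene. Gnas had no gene-end peak in any list.

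Outside the window, the 5 Mb bin of chromosome 2 with the most sites ran from 30 to 35 Mb. It had 26 recurrent sites of 330 (7.88%), 6 of them in 3 or 4 lists and 2 in all 4. Of its 10 sites in both untreated lists, 6 were in chromium 1 and 4 in neither chromium list. Of the bins nearer the window, that from 155 to 160 Mb had 22 recurrent sites of 305. The bin from 175 to 180 Mb had 0 of 2. The bin from 180 to 185 Mb had 16 of 134, a larger share than that of the window. Without its central 2 Mb the window had 39 of 563 (6.93%), a smaller share than that of the bin from 30 Mb. Differences between these stretches were not tested, since they stand out by the same peaks.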

How the data were processed

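Per the submitters' processing notes, reads were handled with Bowtie and MACS2 on build mm10; as to versions, thresholds and duplicate removal: not given in the sources used here. Per the deposited peak names, each library was called alone, number 1 libraries against input 1 and number 2 libraries against input 2. Each peak's deposited score was made by the authors on an unnamed scale and was used only to rank or filter peaks within a list. Gene positions and promoter sequences came from RefSeq tables of GRCm38.p6 (21883 protein-coding genes).

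Positions were made 1-based and chromosomes 1 to 19, X and Y kept. Intervals are exact Clopper-Pearson (95%). Gene-end and start shares were compared by two-sided exact permutation, 2 against 2, or by sign flips over 4 differences. Site merging was tested on simulated data. The members, gene lists and rule for named genes were chosen with earlier results of these data known, and the central 2 Mb and the motif CANNAGNGG after the values were seen. The rule names Cebpb, Snai1, Ptgis and Atp9a, the nearest gene of each site in 3 or 4 lists, genes with a recurrent site within 1 kb of an end, and listed genes with a gene-end peak. Of 99 entries in the 6 lists, 96 matched a window gene; 1 gene can be in several lists. Alternatives were the peak score, list length, window borders, gene-end distance, overlap and leaving out each library. Analyses used Python 3.11.15, numpy 2.4.6, pandas 2.3.3, scipy 1.17.1 and matplotlib 3.10.9.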

Additional observations from a re-analysis of the deposited data

How the results depend on the processing

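No test of the report passed 0.05 and none could, given 4 libraries. The untested difference in the window's share of chromosome 2 peaks, chromium minus untreated, ranged from -5.97 to 2.41 points over the fits that left out 1 library each; it turned positive without untreated 2. It was -7.17 points with peaks at or above the median score of their list and -3.53 points with lists of equal length. The gene-end difference between the groups turned to 0.883 points with peaks at or above the median score of their list and to 0.111 points with lists of equal length. The cause was not tested. The gene-end share of the window stayed below the rest of chromosome 2 on average under all alternatives run (-6.47 points with lists of equal length, -1.65 with gene ends within 500 bp, -2.14 with the first 10 Mb), but with chromium 2 higher (3 of 4 libraries lower) for the peaks at or above the median score (exact permutation p = 0.25) and for a wider gene-end distance of 2.5 kb (exact permutation p = 0.375).

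The 83 recurrent sites became 53 with the peaks at or above the median score, 44 with lists of equal length and between 42 and 79 with 1 library left out. Their median spacing of 43.8 kb became 72.0 kb and 93.3 kb under the first pair of settings and 43.8 to 94.99 kb with 1 library left out. Fewer peaks entered each of these. The 8 sites in both untreated lists and neither chromium list became 5 in the first 10 Mb, 13 with 5 Mb added at the lower end, and 8 or 35 without chromium 2 or chromium 1. The opposite pattern went from 0 to 2 with the added 5 Mb, and was 2 or 0 without untreated 1 or untreated 2. Leaving out a library of the other group gave no value for either pattern. With the replicate block, the paired difference averaged -1.78 points for the window share, again given with no test. For the gene-end share it averaged -1.81 points (exact permutation p = 0.5, the smallest that 2 pairs allow). Same-numbered libraries deviated together across 328 bins of 5 Mb (correlation 0.310), but 2 pairs cannot show that the numbers pair the samples. Depth is unknown, so a site absent from a short list cannot be told from one missed there.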
